A study of Mus musculus with 6 samples.

Results

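The Reg lectins and the antimicrobial genes of Paneth cells were followed in the distal jejunum of mice that lacked Hnf4a in the gut epithelium. The set held 9 genes, chosen by symbol, of 18193 genes measured: Reg1, Reg3a, Reg3b, Reg3g, Lyz1, Mmp7, Ang4, Nupr1 and Lcn2. All 9 were on the array, through 14 probe sets that the platform annotation pairs with exactly 1 of these symbols. Each gene was read from its brightest probe set, and the others served as a check.

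RNA was measured on Affymetrix arrays, 1 array per animal, in 3 control and 3 mutant littermates killed at 7 months of age. All 6 animals carry the strain name B6.129X1(FVB)-Hnf4atm1.1Gonz/J in the labels. In the mutants Hnf4a was deleted by a Cre recombinase under a 12.4 kb Villin promoter, which is active in the intestinal epithelium, and the labels do not say whether the controls carried Cre. Animals of both groups were kept free of specific pathogens as far as the labels state and received 300 mg/kg ketamine and 40 mg/kg xylazine before they were killed. The RNA came from biopsies of total jejunum, so transcripts of stroma, muscle and immune cells were measured with those of the epithelium. In such a bulk sample, fewer cells of a type and less RNA per cell cannot be told apart.

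Reg3 proteins are secreted C-type lectins of enterocytes and Paneth cells. They bind bacterial cell walls and keep bacteria at a distance from the mucosa, and signals from microbes through MyD88 and the cytokine IL-22 are known to induce them. Paneth cells sit at the crypt base and release granules of lysozyme, defensins, angiogenins and a phospholipase, and their metalloproteinase Mmp7 cuts prodefensins into active peptides. The deleted gene, Hnf4a, codes for a transcription factor of the nuclear receptor family that acts in gut and liver epithelium.

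Hnf4a itself read 11.82, 11.76 and 11.57 (log2 signal) in controls 1, 2 and 3 and 8.83, 8.83 and 9.82 in mutants 1, 2 and 3. The groups did not overlap, and the gene passed the test (limma, adjusted p = 0.00756). Rank correlations between arrays ran from 0.98 to 0.987. Control 3 stood apart by transcripts of pancreatic acinar cells and mutant 2 by transcripts of fat. Both are given with the results they touch. Enterocyte markers were bright in every array, with Vil1 between 12.54 and 12.85 and Fabp2 between 13.90 and 14.01.

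Of the 9 genes, 7 lay higher in the mutants and 2, Reg3a and Lyz1, lay lower, but none passed the test. The lowest adjusted p was 0.127, for Reg3g (limma's moderated test, adjusted over 18193 genes). Over all genes, 0.528% passed this test. At an unadjusted p under 0.05 there were 7 of the 9, against 12.1% of all genes. At an adjusted p under 0.05, an ordinary linear model without moderation called 0 of the 9, and only 2 of all 18193 genes. In 7 of the 9 genes the groups did not overlap, with the mutants above the controls in 5 genes and below them in 2. The groups did not overlap in 17.1% of all genes (6.93% above and 10.2% below). The median difference of the 9 genes was 0.38 on the log2 scale, against -0.01 over all genes. That median is the value of Lcn2, which lay below the median probe set on every array. The 9 genes were chosen with results of these arrays known, so these shares describe the set and test nothing.

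**Figure D1:**
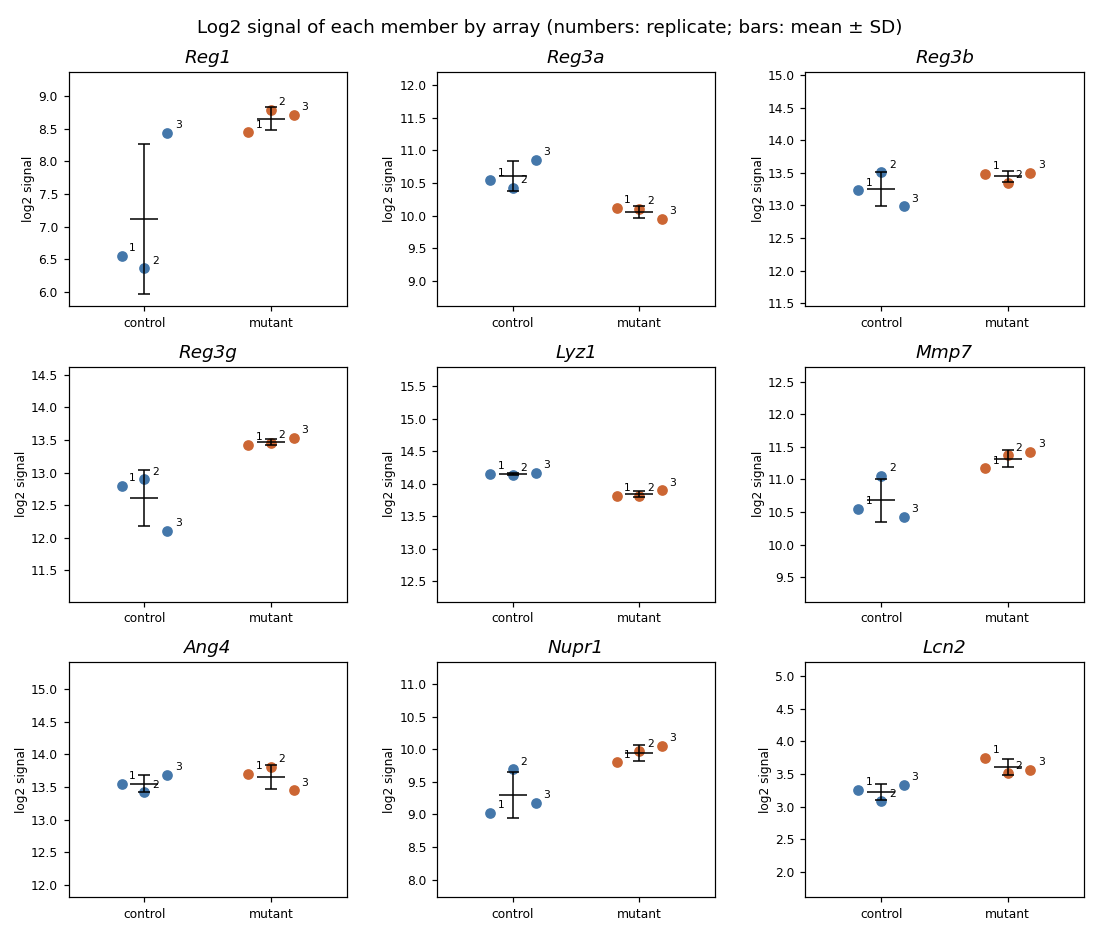
Log2 signal (vertical axis) of the 9 genes in each array, with controls in blue, mutants in orange, the replicate number beside each point and bars for mean ± SD (n = 3). Each panel spans the same number of log2 units, so heights compare between panels. Reg1 of control 3, at 8.44, lies close to the 8.45 of mutant 1 and apart from the 6.55 and 6.36 of controls 1 and 2, while Reg3b and Ang4 overlap between groups.

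Reg1 showed the largest difference of the set, and its size depended on control 3. Reg1 is a secreted lectin of the gut and of pancreatic acinar cells. Its log2 signal was 6.55, 6.36 and 8.44 in controls 1, 2 and 3 and 8.45, 8.79 and 8.72 in mutants 1, 2 and 3. The mutants thus lay close together, controls 1 and 2 lay well below them, and control 3 fell just under the lowest mutant. Over all 6 arrays Reg1 was 2.91-fold higher in the mutants (log2 difference 1.54 ± 0.48 SE, 95% interval 0.43 to 2.64, adjusted p = 0.253 in limma's moderated test). Without control 3 the difference was 4.59-fold (log2 2.20 ± 0.15 SE, 95% interval 1.84 to 2.55) and passed the test with an adjusted p of 0.00741. In that fit 22 genes passed, or 0.121% of those tested. Leaving out control 3 together with mutant 2 gave 2.13 with an adjusted p of 0.0667, in a fit with 4 arrays.

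Pancreatic acinar transcripts marked the same array. Of 17 measured acinar genes, 14 were highest in control 3. The mean of the list was 7.39 there and between 5.24 and 5.35 in the other arrays. The elastase gene Cela2a read 8.95 in control 3 and at most 2.93 elsewhere, and the carboxypeptidase gene Cpb1 read 8.18 against at most 3.76. In the other 5 arrays both lay below the median probe set of the array, where signal is close to background. The trypsin gene Prss2 read 8.18 in control 3 and between 5.63 and 6.02 elsewhere. Reg1 of control 3 exceeded the mean of controls 1 and 2 by 1.98 (log2), its neighbour Reg2 by 0.49 and Reg3d by 0.03. The part of acinar RNA in the Reg1 value of control 3 was not tested. No acinar gene passed the test between groups (0 of 17, with 0 higher and 2 lower at an unadjusted p under 0.05 in limma), and the median difference of the list was -0.67, or 0.03 without control 3 and -1.10 without control 1.

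**Figure D2:**
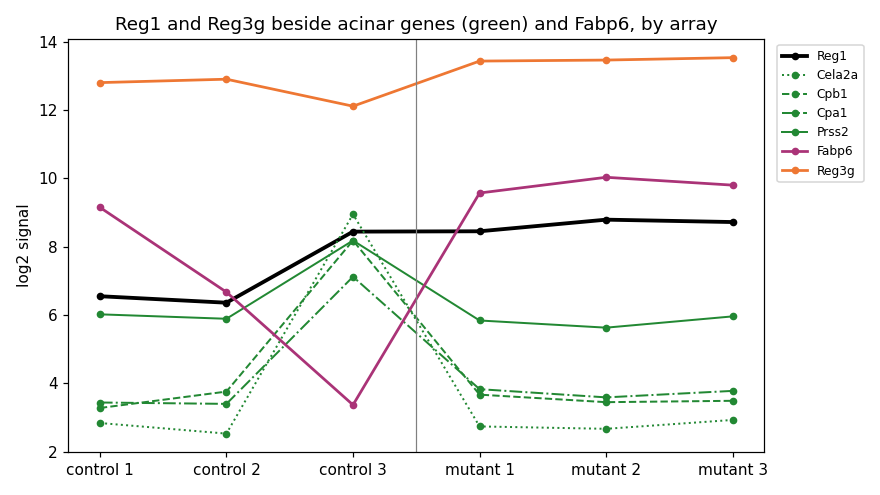
Log2 signal (vertical axis) of Reg1, Reg3g, 4 acinar genes and the ileal gene Fabp6 in each of the 6 arrays (horizontal axis), with lines joining the values of 1 gene only to guide the eye. In control 3, Cela2a stands at 8.95, Cpb1 and Prss2 at 8.18 and Cpa1 at 7.12, Reg1 at 8.44, Fabp6 at 3.37 and Reg3g at 12.11. In the mutants Reg1 lies between 8.45 and 8.79 with the acinar genes at their low level.

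The Reg3 genes of the array did not share 1 direction. Reg3g, the lectin that kills Gram-positive bacteria, read 12.80, 12.90 and 12.11 in controls 1, 2 and 3 and 13.43, 13.46 and 13.53 in the mutants. All mutants lay above all controls, and the mutants were closer to each other than the controls were. The difference was 1.82-fold (log2 0.87 ± 0.20 SE, 95% interval 0.41 to 1.32, adjusted p = 0.127 in limma's test). Control 3 was the lowest array, and without it the difference was 0.62 (adjusted p = 0.204). Reg3b, its close paralog, is also known to act on Gram-negative bacteria. It read 13.23, 13.51 and 12.99 in controls and 13.49, 13.35 and 13.50 in mutants. Here the groups overlapped, with control 2 at the top and control 3 at the bottom. The difference was 0.20 ± 0.14 SE (95% interval -0.13 to 0.53, adjusted p = 0.649 in limma's test), and its other probe set gave 0.22. Without control 3 the difference was 0.08 and without control 2 it was 0.34.

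Reg3a lay lower in the mutants. Its log2 signal was 10.54, 10.43 and 10.86 in controls 1, 2 and 3 and 10.12, 10.10 and 9.95 in mutants 1, 2 and 3. The groups did not overlap, with control 3 the highest array. The difference was -0.55 ± 0.13 SE (95% interval -0.86 to -0.24), or 1.46-fold lower, with an adjusted p of 0.149 in limma's test, and it was -0.42 without control 3.

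Differences between the Reg3 genes were taken within each array, where a shift common to the array cancels. Reg3g minus Reg3a was 2.26, 2.48 and 1.25 in the controls and 3.30, 3.36 and 3.57 in the mutants, a shift of 1.42 between group means. Reg3b minus Reg3a shifted by 0.75 and Reg3g minus Reg3b by 0.66, from -0.43, -0.61 and -0.88 in controls to -0.07, 0.11 and 0.02 in mutants. In all 3 pairs the mutants lay wholly above the controls. For Reg3g minus Reg3a this followed from Reg3g lying above and Reg3a below the controls in every mutant. Each pair difference is also fixed by the other pairs, so the pairs are not separate results. An exact two-sided permutation test over the arrays gave p = 0.1 for each pair, and 0.1 after adjustment over the 3 pairs. This is the smallest p that 3 arrays against 3 can give, so the test could not pass 0.05. Without control 3 or any other single array the shift of Reg3g minus Reg3a lay between 1.05 and 1.66. The highest value on any array was 14.54, and array signals are known to saturate toward the top, whose part in these shifts was not tested.

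**Figure D3:**
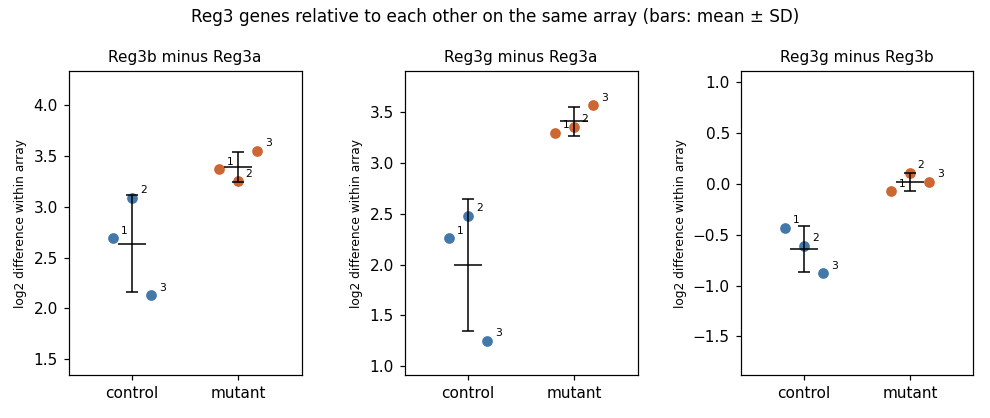
Difference in log2 signal (vertical axis) between a pair of Reg3 genes on the same array, for controls (blue) and mutants (orange), with the replicate number beside each point and bars for mean ± SD (n = 3). Each panel spans the same number of log2 units. In each panel the mutants lie above all controls, and control 3 is the lowest array.

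The Reg genes of this set are neighbours on 1 chromosome, in the order Reg3b, Reg3d, Reg3a, Reg2, Reg1 and Reg3g among protein-coding genes of the RefSeq annotation (GRCm38.p6). Along that order the difference was above 0 for the first pair of genes, below 0 for the next pair and above 0 for the last pair. It was 0.20 for Reg3b, 0.37 for Reg3d, -0.55 for Reg3a, -0.11 for Reg2, 1.54 for Reg1 and 0.87 for Reg3g (log2), with no gene past the test. Reg4, a family member on another chromosome, differed by -0.76 and overlapped between groups. Of the 7 measured genes of the family, 0 passed the test, 4 lay above and 3 below the control mean, and the median was 0.20, with 0.08 without control 3 and 0.34 without control 2. The mutants lay above the controls in Reg1, Reg3d and Reg3g and below them in Reg3a. Reg3d and Reg2 read at most 5.29 on any array.

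The 250 bases before the annotated start of 4 Reg genes are shown because genes of the cluster differed in direction, though none passed the test. The window of Mmp7 is shown because Mmp7 paired with Nupr1 in pattern. All 9 genes were matched in the RefSeq promoter table (build GRCm38.p6). The windows lie at chr6:78425733-78425982 on the plus strand for Reg1, chr6:78380459-78380708 on the plus strand for Reg3a, chr6:78370635-78370884 on the plus strand for Reg3b, chr6:78468875-78469124 on the minus strand for Reg3g and chr9:7691840-7692089 on the plus strand for the first of 2 starts of Mmp7. Each is written 5′ to 3′ on the strand of its gene and ends on the base before the start. Capitals mark matches to the motifs named after the sequences.
Reg1: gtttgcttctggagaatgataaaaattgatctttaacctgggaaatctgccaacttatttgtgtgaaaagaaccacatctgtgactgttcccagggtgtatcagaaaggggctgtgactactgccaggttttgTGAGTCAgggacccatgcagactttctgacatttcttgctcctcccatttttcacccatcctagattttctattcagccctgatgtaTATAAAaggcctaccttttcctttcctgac
Reg3a: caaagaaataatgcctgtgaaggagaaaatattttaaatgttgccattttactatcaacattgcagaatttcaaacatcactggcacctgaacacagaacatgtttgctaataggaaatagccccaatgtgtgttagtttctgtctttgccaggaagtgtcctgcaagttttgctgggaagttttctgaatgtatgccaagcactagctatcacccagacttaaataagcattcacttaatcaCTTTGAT
Reg3b: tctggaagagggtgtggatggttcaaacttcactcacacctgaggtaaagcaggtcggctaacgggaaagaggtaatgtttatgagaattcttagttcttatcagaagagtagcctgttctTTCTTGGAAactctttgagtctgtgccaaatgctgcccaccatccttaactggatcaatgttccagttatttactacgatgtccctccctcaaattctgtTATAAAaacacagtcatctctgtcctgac
Reg3g: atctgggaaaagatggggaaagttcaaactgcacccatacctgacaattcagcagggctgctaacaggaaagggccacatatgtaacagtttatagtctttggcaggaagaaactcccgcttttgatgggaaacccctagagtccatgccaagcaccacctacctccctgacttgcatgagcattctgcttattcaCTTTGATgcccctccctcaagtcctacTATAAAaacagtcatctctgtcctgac
Mmp7: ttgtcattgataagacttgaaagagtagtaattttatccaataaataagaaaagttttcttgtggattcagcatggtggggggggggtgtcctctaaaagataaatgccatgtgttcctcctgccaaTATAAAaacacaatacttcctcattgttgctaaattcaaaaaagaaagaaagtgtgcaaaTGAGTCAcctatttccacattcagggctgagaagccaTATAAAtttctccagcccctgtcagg

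By the share of identical bases over all aligned positions, Reg3b and Reg3g had the most alike windows in the Reg cluster among the 5 pairs aligned. The identity was 68.4% of 253 aligned positions, and they shared the last 20 bases before the start, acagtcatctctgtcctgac, without a mismatch. Reg3a shared 47.5% of 301 positions with Reg3g and 45.1% of 304 with Reg3b. The Reg3a window is out of register with that of Reg3g. The string CTTTGAT spans bases 7 to 1 before the start in Reg3a and bases 54 to 48 in Reg3g. Unpaired positions count as not identical, so the shares with Reg3a cannot be set against the 68.4%. Searches covered both strands except for the TATA box, which was sought on the gene's strand only. The TATA box (TATAAA) was found in the windows of Reg1, Reg3b, Reg3g and Mmp7, and in 7.59% of 32851 windows of the same length. It was not in the Reg3a window, which stops at CTTTGAT, whereas in Reg3g the box follows that string. The Reg3a bases after CTTTGAT were not searched, so a lack of the box in Reg3a is not shown. In Reg1, Reg3b, Reg3g and Mmp7 a match began 30, 29, 27 and 26 bases before the start. The STAT motif (TTCNNNGAA) was in Reg3b, Ang4 and Nupr1, and in 7.02% of all windows. The AP-1 motif (TGANTCA) was in Reg1, Mmp7 and Ang4, and in 6.75% of all windows. The TCF/LEF motif (CTTTGAT) was in Reg3a, Reg3g and the window of the other Mmp7 start, and in 3.21% of all windows. That Mmp7 window lies wholly downstream of the first Mmp7 start, and of the 9 genes only Mmp7 had 2 windows searched. The HNF4 motif (CAAAGTCCA) was in none of the 9 genes' windows and in 0.384% of all windows. None of these motifs overlapped another in the windows printed. A match is a string of letters, not a site shown to be bound.

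Among the Paneth cell genes, Lyz1 lay lower while Mmp7 and Nupr1 lay higher and Ang4 overlapped. Lyz1, the lysozyme of Paneth granules, read 14.15, 14.13 and 14.17 in controls 1, 2 and 3 and 13.81, 13.81 and 13.90 in mutants 1, 2 and 3. The arrays of each group lay close together, and the groups did not overlap. The difference was -0.31 ± 0.09 SE (95% interval -0.52 to -0.10), or 1.24-fold lower, with an adjusted p of 0.231 in limma's test. The other probe sets of Lyz1 gave -0.34 and -0.49, both with all mutants below all controls. The last of these read between 4.47 and 5.12.

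Lyz2, the lysozyme of macrophages, lay lower as well. It read 11.52, 11.32 and 11.40 in controls and 11.18, 10.93 and 11.08 in mutants, a difference of -0.35 ± 0.11 SE (adjusted p = 0.259 in limma's test). These paralogs are neighbours, with 79.4% identity over the 250 bases before their starts. By Affymetrix naming, the IDs of both bright Lyz1 probe sets mark probes that may also match other transcripts. Their values are thus uncertain for Lyz1 as a gene separate from Lyz2. The IDs of the probe sets used for Reg3b, Ang4 and the defensin gene Defa31 carry such marks too, as does that of the other Nupr1 probe set. Those of the Lyz2 probe set, the dim Lyz1 probe set and the other probe sets of Reg3b and Ang4 do not. Most other macrophage markers lay the other way from Lyz2. Csf1r, the receptor of a macrophage growth factor, differed by 0.40 and Adgre1 by 0.28, with all mutants above all controls. Of 13 measured macrophage markers, Lyz2 among them, 11 lay above the control mean, 0 passed the test and the median was 0.28. In 11 of the 13 mutant 2 was the highest array, and without it the median was 0.06.

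Mmp7 read 10.55, 11.06 and 10.43 in controls 1, 2 and 3 and 11.17, 11.37 and 11.42 in mutants 1, 2 and 3. Control 2 was the highest control and lay just below mutant 1. The difference was 0.64 ± 0.17 SE (95% interval 0.24 to 1.03), or 1.56-fold, with an adjusted p of 0.185 in limma's test. Nupr1, a small nuclear protein induced by cellular stress and present in Paneth cells, was also highest among the controls in control 2. It read 9.02, 9.69 and 9.18 in controls and 9.80, 9.97 and 10.05 in mutants. The difference was 0.64 ± 0.17 SE (95% interval 0.24 to 1.05), or 1.56-fold, with an adjusted p of 0.190. Its other probe set differed by 0.57 and overlapped between groups. Without control 2 the differences were 0.83 for Mmp7 and 0.84 for Nupr1, each with an adjusted p of 0.103.

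Ang4, a ribonuclease of Paneth granules with bactericidal action, read 13.55, 13.42 and 13.69 in controls and 13.70, 13.81 and 13.45 in mutants. The groups overlapped, since mutant 3 read below control 1. The difference was 0.10 ± 0.13 SE (95% interval -0.19 to 0.40, adjusted p = 0.828 in limma's test), and the other probe set gave 0.10. Of 7 measured angiogenin and related ribonuclease genes, 0 passed the test and 6 lay above the control mean, with a median of 0.10, which ran from 0.03 without mutant 2 to 0.20 without mutant 3. The exception was Rnase1, a pancreatic ribonuclease, at -0.91 ± 0.23 SE, with 8.87 in control 3, between 7.82 and 8.25 in the other controls and between 7.32 and 7.50 in the mutants. Ang differed by 0.39, Rnase4 by 0.28 and Rnase6, below the array median throughout, by 0.27, with overlapping groups.

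**Figure D4:**
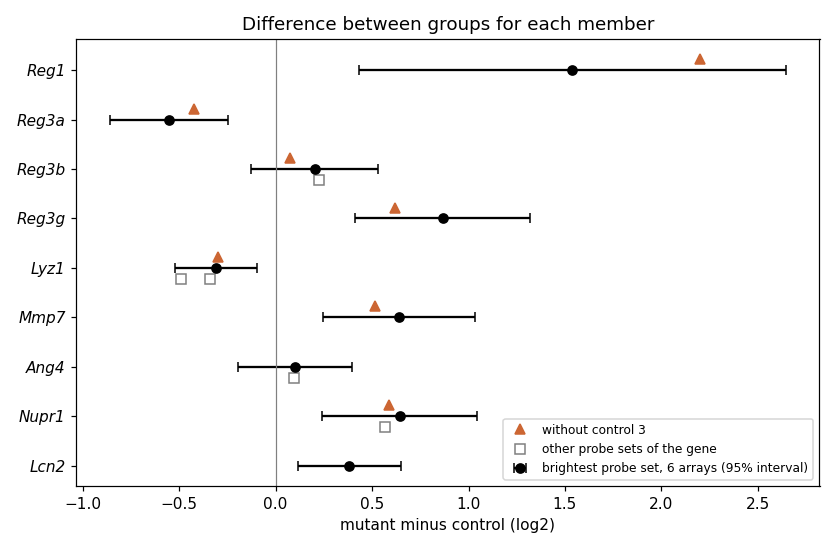
Difference between mutant and control means (horizontal axis, log2) for each of the 9 genes. Black points and bars give the brightest probe set with its 95% interval over 6 arrays, open squares the other probe sets of the gene, and orange triangles the difference without control 3 for the 7 genes drawn that way (not Ang4 and Lcn2). The triangle of Reg1 lies at 2.20, to the right of its point at 1.54, whereas those of Reg3g, Reg3a and Mmp7 lie closer to 0 than their points.

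Lcn2 gave no signal clear of background. Its product is a lipocalin that binds bacterial siderophores and so withholds iron from bacteria, and it comes from stimulated epithelium and from neutrophils. It read 3.26, 3.08 and 3.33 in controls 1, 2 and 3 and 3.75, 3.51 and 3.56 in mutants 1, 2 and 3. All 6 values lay below the median probe set of their arrays, which ran from 3.93 to 3.98, so whether the gene was expressed at all is uncertain. The mutants lay above the controls, by 0.38 ± 0.12 SE (adjusted p = 0.238 in limma's test). Among 13 neutrophil markers 0 passed the test, and the median was 0.02, with 0.09 without mutant 2, -0.05 without mutant 3, -0.03 without control 2 and 0.20 with the filter on dim genes. Of these markers 9 lay below the array median on all 6 arrays, among them S100a8, S100a9, Ltf, Camp and Ngp. The mean of that list lay between 3.43 and 3.52 in controls and between 3.35 and 3.63 in mutants. Of 12 genes of siderophore binding and metal withholding, 0 passed, 5 lay above and 7 below the control mean, and 8 lay below the array median on every array. The hepcidin gene Hamp, below the array median throughout, differed by 0.47, the zinc and iron carrier gene Slc39a14 by -0.18 and Slc11a1, a metal pump of phagosomes, by 0.20.

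The wider Paneth granule list held 15 measured genes of 28, of which 1 passed the test, 11 lay above and 4 below the control mean, and the median was 0.17. Without mutant 2 the median was 0.06 and without control 1 it was 0.10. This list also held genes that are not particular to Paneth cells, such as Guca2b and Copz2. The gene that passed was Mptx1, a mucosal pentraxin. It read 11.23, 11.49 and 11.40 in controls 1, 2 and 3 and 12.22, 12.14 and 11.95 in mutants 1, 2 and 3, and rose 1.66-fold (log2 0.73 ± 0.12 SE, adjusted p = 0.0496 in limma's test). This call was lost in 13 of 18 alternatives, among them each omission of a single array, with an adjusted p as high as 0.227 in those. Pla2g2a, the secreted phospholipase of Paneth granules, differed by 0.55 ± 0.18 SE with all mutants above all controls and mutant 3 highest. Itln1, an intelectin that binds microbial glycans, differed by 0.21, again with no overlap. Defensins are a multigene family whose probe sets mostly carry several symbols. Defa31 differed by 0.03 and read between 14.33 and 14.48, at the top of the scale, while Defa3 read at most 3.07 on any array. Guca2b, the uroguanylin gene, differed by -0.39.

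**Figure D5:**
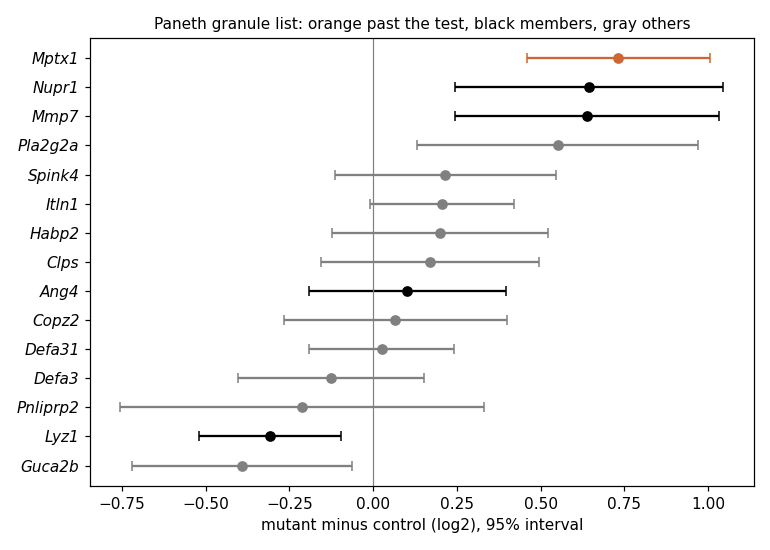
Difference between mutant and control means (horizontal axis, log2) with 95% intervals for the 15 measured genes of the Paneth granule list, ordered by size. Orange marks Mptx1, the gene that passed the test, black the 4 genes of the set of 9 and gray the others. Mptx1, Nupr1, Mmp7 and Pla2g2a lie to the right of 0 with their intervals, and Lyz1 and Guca2b to the left.

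Genes that specify Paneth cells or form their niche did not pass the test in any of 23 measured cases. Of these, 15 lay above and 8 below the control mean, and the median was 0.17, or 0.07 without mutant 3. The receptor kinase gene Kit differed by 0.66 ± 0.17 SE, the interferon-induced GTPase gene Irgm1 by 1.19 ± 0.32 SE, Cd24a, a surface marker of Paneth cells and their precursors, by 0.37, and the Wnt effector gene Tcf7l2 by 0.62. Irgm1 of control 1, at 7.53, lay near mutant 1 at 7.59, with controls 2 and 3 at 6.26 and 6.33. Goblet cells share the secretory lineage, and their 11 markers had 0 past the test, 9 above the control mean and a median of 0.23, or 0.12 without mutant 2 and 0.13 without control 3. Agr2, a disulfide isomerase needed for mucin folding, differed by 0.54 and Clca1 by 0.35 with no overlap, while Spdef and Creb3l4 differed by 0.31 and 0.23 and overlapped. Enterocyte markers lay the other way. All 13 were below the control mean, 0 passed, the median was -0.12 (-0.20 without mutant 2), and Fabp1, Lct, Anpep and Alpi differed by -1.23, -0.61, -0.53 and -0.20.

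No lysozyme or metalloproteinase gene passed the test. Of 6 lysozyme genes, 0 passed and 4 lay below the array median on all arrays. Lyg2 differed by -0.25 and Spaca3 by -0.21, both among these. Of 16 measured metalloproteinases and their inhibitors 0 passed, 13 lay above the control mean, 6 were below the array median throughout and the median was 0.10, or 0.15 without control 1 and 0.19 with the filter on dim genes. After Mmp7 the smallest p belonged to the stromelysin gene Mmp3, at 0.44 but below the array median on every array, to Mmp9 at 0.52 and to Mmp13 at 0.60.

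No measured gene known to act upstream of the Reg3 genes passed the test. Of 28 listed genes of the IL-22, IL-17 and STAT3 pathways 24 were measured, and the IL-22 gene itself was not among them. Of the 24, 17 lay above the control mean and the median was 0.09, or 0.04 without mutant 3. The shared cytokine receptor gene Il6st differed by 0.32 with no overlap, the NF-kB cofactor gene Nfkbiz by 0.91, the cytokine gene Il18 by -0.65 and the lymphotoxin gene Ltb by 0.68. Stat3 read between 9.21 and 9.40 in controls and 9.16, 9.56 and 9.92 in mutants 1, 2 and 3. The IL-22 receptor gene Il22ra1 differed by 0.12 with overlapping groups, and Il17a lay below the array median throughout. Among the receptor and partners of Reg3 lectins, 0 of 5 passed and the median was -0.0011. Egfr, Pigr, Fut2 and Extl3, the last a proposed receptor of Reg3 proteins, differed by -0.09, 0.10, 0.03 and -0.01.

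Genes that sense microbes were mostly above the control mean. Of 20 measured Toll-like and NOD pathway genes 0 passed the test, 17 lay above the control mean, and in 8 all mutants lay above all controls, against 6.93% of all genes. The median was 0.21, with 0.12 without mutant 2 and 0.33 without mutant 1. Lbp, which carries lipopolysaccharide to Cd14, read 5.50, 5.52 and 5.05 in controls and 6.35, 6.67 and 5.98 in mutants, a difference of 0.97 ± 0.20 SE (adjusted p = 0.0927 in limma's test). Tlr4, the receptor of lipopolysaccharide, read 4.11, 4.08 and 4.01 in controls and 4.58, 5.07 and 5.46 in mutants, a difference of 0.97 ± 0.20 SE (adjusted p = 0.0964 in limma's test). Cd14 differed by 0.60 and the NF-kB inhibitor gene Tnfaip3 by 0.37. Macrophages also express Tlr4 and Cd14. The macrophage list, which itself holds Cd14, averaged 6.83 to 6.87 in controls and 7.01, 7.31 and 6.92 in mutants 1, 2 and 3. The part of macrophages in these differences was not tested.

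Among 24 other epithelial antimicrobial genes 2 rose, 0 fell and 22 did not pass, with a median of 0.26, or 0.40 without control 1. The genes that rose were Retnlb, a goblet cell peptide, by 5.43 ± 0.45 SE, and Pla2g10, a secreted phospholipase, by 1.27 ± 0.13 SE (adjusted p = 0.00533 and 0.00756 in limma's test). Both kept the call with any 1 array left out. Retnlb read below the array median in all 3 controls, so the size of its change is uncertain. Sprr1a differed by 2.75 and the oxidase maturation gene Duoxa2 by 0.71. Sprr1a read 4.25, 6.63 and 8.90 in mutants 1, 2 and 3, which spread more widely than the controls at 4.16, 3.56 and 3.82.

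Stress genes with Nupr1 were mixed. Of 21 measured targets or partners of ATF4, a transcription factor of the stress response that induces Nupr1, 0 passed the test, 14 lay above and 7 below the control mean, and the median was 0.16, with -0.01 without mutant 3 and 0.30 without mutant 1. Asns, the asparagine synthetase gene, differed by 0.58 ± 0.15 SE and Phgdh, which starts serine synthesis, by 0.32, both with no overlap. Slc3a2, a subunit of amino acid exchangers, differed by -0.49, all mutants being below all controls. Atf4 itself overlapped between groups and read 9.14 in mutant 1 against 10.47 in mutant 3.

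The position of the biopsy along the gut was followed through regional genes, since Reg3 genes are known to be higher in the ileum. Of 10 measured ileum and colon markers 0 passed the test, 9 lay above the control mean and the median was 0.23, or 0.09 without mutant 2. Fabp6, the ileal bile acid binding protein, read 9.15, 6.67 and 3.37 in controls 1, 2 and 3 and 9.57, 10.03 and 9.80 in mutants 1, 2 and 3. Control 3 was thus lowest in Fabp6 and in Reg3g and Reg3b, and highest in acinar genes and Reg3a. Control 1 was the control with the highest Fabp6 and read 12.80 for Reg3g, between the other controls. Slc51b differed by 0.65, Slc10a2 by 1.96 and Slc51a by 0.33. Of 6 proximal markers 1 fell, Onecut2, by 0.93 on the log2 scale (adjusted p = 0.024 in limma's test), though it lay below the array median in 5 arrays and lost the call without any single array but control 1. Gata4, Osr2 and Cybrd1 differed by -0.34, -0.43 and 0.22. The part of biopsy position in the Reg differences was not tested. Fat markers, 8 measured, had 0 past the test and 6 highest in mutant 2, where their mean was 8.56 against 6.83 to 7.23 elsewhere. Their median difference was 0.43, or -0.19 without mutant 2. Cidec, Lep, Fabp4 and Retn differed by 0.48, -0.16, 0.62 and 0.56.

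Patterns over the 6 arrays were compared as the root-mean-square difference of log2 values after each gene was centred on its own mean, among genes brighter than the median gene. It describes likeness over 6 arrays and favours genes that vary little. Nupr1 and Mmp7 were each other's nearest gene at 0.08, followed for both by the stress-hormone responsive chaperone gene Fkbp5 and by Asns. For Reg3g the nearest genes were Hgfac at 0.16, the transporter gene Slc5a8 at 0.16 and the gut hormone gene Pyy at 0.17. For Reg1 they were the hormone gene Cck at 0.51, Mt1 at 0.55 and Rab30 at 0.55, all farther away than those of the other members. Of these Mt1, a metallothionein gene, passed the test (adjusted p = 0.0307 in limma's test). Cck read 6.16, 6.18 and 6.97 in controls and 7.29, 7.43 and 7.30 in mutants. For Lcn2 the nearest was Dmbt1 at 0.05, a secreted scavenger protein that binds bacteria, with 11.61, 11.50 and 11.68 in controls and 12.23, 11.95 and 11.97 in mutants. It was followed by Tex10 at 0.06 and Ncdn at 0.06. Reg3a was nearest to Dnah8 at 0.06, Gstm4 at 0.08 and Cyb5a at 0.08, and Reg3b to Cdc42ep1 at 0.05, Ptprd at 0.07 and Zfp36l1 at 0.07. Lyz1 was nearest to Ube2q1 and Cltb, at 0.01 and 0.02, and to Trappc10 at 0.03, and Ang4 to Mrpl41, Palld and Lmf1 at 0.03 to 0.04.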

How the data were processed

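The authors deposited 1 log2 signal for each probe set on each array, with values from 1.80 to 14.54, and the scale was inferred from that range. The background correction and the normalisation behind them were not given in the sources used here. Of 45101 probe sets, 64 Affymetrix controls were left out, 34945 carried 1 gene symbol in the platform annotation, 932 several and 9160 none listed. The brightest probe set with 1 symbol, by its mean over 6 arrays, stood for each of 18193 genes. Groups came from the sample titles. The test was limma's lmFit and eBayes (version 3.58.1, two-sided, with group as the only term) in R 4.3.3, with Benjamini-Hochberg adjustment over all genes and a threshold of 0.05. The procedure was tested on simulated data. P-values measure the spread between these animals, and the number of arrays limits the precision.

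The 9 genes and the 20 gene lists were chosen with earlier results of these data known. Named are the 9 genes, Hnf4a, up to 4 genes with the smallest p in each list together with any past the test, and the 3 genes nearest in pattern to each of the 9. Others named, such as cell type markers, single list members given for their role and genes of the closing section, were chosen after their values were seen. Lists were described by counts and medians, with no set test. Alternatives covered normalisation, dim genes, probe set choice, variance model, the replicate number, Y-linked signal and omitted arrays. Promoter windows of 250 bases came from RefSeq, GRCm38.p6, and were aligned with Biopython 1.88.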

Additional observations from a re-analysis of the deposited data

How the results depend on the processing

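All 9 genes kept their direction under every alternative run (18 each, 17 for Lcn2, which the filter on dim genes removed). None passed the test in any of them except Reg1 without control 3. With 1 array left out, the Reg1 difference ran from 1.16 to 2.20 (log2, adjusted p 0.00741 to 0.551) and 0 to 1 of the 9 genes passed. The 3 shifts between Reg3 genes kept their direction under all 8 alternatives each. The number of genes called over the whole array, 96, was 11 with a floor at the 20th percentile, 2 without moderation of the variance, 62 with the replicate number as a block, 150 with array weights, 196 with Y-linked signal as a covariate, 248 at an adjusted p under 0.1 and 4 without control 3 and mutant 2. It ran from 22 to 96 with 1 array left out, which also lowers power. Among the 250 measured list genes, 4 passed, namely Mptx1, Retnlb, Pla2g10 and Onecut2. That count was 0 with the floor and without moderation, 2 with the filter on dim genes, 7 with the Y-linked covariate, 1 without control 3 and mutant 2 and 2 to 4 with 1 array left out. Beyond those settings the cause was not tested. Y-linked genes averaged 5.54 in control 1 and 5.62 in mutant 3 and at most 2.70 elsewhere. The replicate numbers did not pair the arrays. The deviations of same-numbered arrays from their group means correlated at 0.07, 0.07 and -0.02, and 3 of 6 arrays correlated best with their own number. With the replicate block, 0 of the 9 genes passed. Lcn2 and other genes below the array median have no reliable size of change.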

Other observations

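In 4 genes, picked after their values were seen, mutant 3 read higher than every other array. Mutant 3 also differed from mutants 1 and 2 in Hnf4a, at 9.82 against 8.83 in both. Y-linked genes averaged 5.62 in mutant 3 and 2.54 and 2.53 in mutants 1 and 2. The part of either in the values below was not tested. Socs3, a feedback inhibitor of STAT3 signalling, read 10.71 in mutant 3, 6.76 and 7.77 in mutants 1 and 2 and between 7.04 and 7.50 in controls. Mmp10, a stromelysin of wounded epithelium, read 9.02 in mutant 3 and between 7.41 and 7.61 in all other arrays. Sox9, a transcription factor needed for Paneth cells, read 6.90 in mutant 3 and between 5.87 and 6.05 elsewhere. Slc10a2, the ileal bile acid carrier, read 6.98 in mutant 3 and at most 4.40 elsewhere. Among the 9 Reg and Paneth genes, mutant 3 was the highest of the 6 arrays in Reg3g at 13.53, Mmp7 at 11.42 and Nupr1 at 10.05, close to mutant 2 at 13.46, 11.37 and 9.97. It was the lowest mutant in Ang4, at 13.45 against 13.70 and 13.81, and the lowest array in Reg3a at 9.95. In Reg1, Reg3b, Lyz1 and Lcn2 it was neither the highest nor the lowest of the 6 arrays. Hnf4a aside, none of the single genes named in this paragraph passed the test between groups over 6 arrays in limma. Of the 4 genes picked, Slc10a2 had an unadjusted p under 0.05.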
